A study of Canis lupus familiaris with 29 samples.

Results

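Axon guidance ligands and receptors were examined in canine pheochromocytomas and paragangliomas (PPGLs) and in normal adrenal medullas (NAMs). The members were all genes whose symbol belongs to the semaphorin, plexin, neuropilin, ephrin, Eph receptor, SLIT, ROBO, netrin, DCC or UNC5 families, which gave 66 of the 30951 genes in the count table. They form 4 signaling systems of ligands and receptors. UNC5CL was taken in by its symbol alone and was assigned neither role.

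RNA was sequenced from 29 samples of dogs. The NAMs (n = 10) were healthy adrenal medulla from healthy dogs, and the PPGLs (n = 19) were tumors of chromaffin cells removed from patients of several clinics, which the authors divided into group 1 (n = 7) and group 2 (n = 12) by principal component analysis of these same samples. No treatment was given in the labels, and age and breed were not used here. The NAMs and PPGLs thus came from different dogs, and the parts of origin and of tissue in a difference cannot be told apart. Total counts per sample ranged from 19258054 to 35918182 in NAMs, with a median of 25494016.5, and from 18208718 to 31919833 in PPGLs, with a median of 22044100. At this depth, 3 counts corresponded to 0.0835 to 0.156 CPM by total counts alone in NAMs, and to 0.0940 to 0.165 CPM in PPGLs.

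Axon guidance proteins steer growing nerve fibers and migrating cells, including the neural crest cells from which chromaffin cells descend. Semaphorins signal through plexins and neuropilins, ephrins through Eph receptors on touching cells, SLITs through ROBO receptors, and netrins through DCC and the UNC5 receptors. Many of the same proteins are also known for roles in blood vessels and in tumors.

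The comparison of PPGLs with NAMs asked which of these genes differ between tumor and normal medulla. Members of all 4 systems were called, lower ones in every system but the netrin system. SLIT3, NRP2, PLXNB3, SEMA5B, SEMA6B and DCC were higher in PPGLs, while SEMA3B, PLXNC1, SEMA5A and SLIT2 were lower. Of the 66 members, 61 had enough counts to be tested, and EPHA1, NTN3, NTN5, SEMA3E and UNC5CL did not. At a false discovery rate (FDR) adjusted p below 0.05, 23 members were higher in PPGLs, or 37.7%, compared with 22.3% of the 14766 genes tested. Another 9 members were lower, or 14.8%, compared with 15.2% of all genes tested, so that the share of lower members was near the background. The median log2 fold change (FC) of the tested members was 0.47, compared with 0.13 over all genes tested.

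Large changes were few. DCC, EPHA7 and SEMA5B, 3 members in all, passed a log2 FC of 3 in addition to the adjusted p, compared with 2.07% of all genes tested. SEMA3B was the 1 member that passed a log2 FC of -3, compared with 0.792% of all genes tested. No member was higher in every PPGL than in every NAM (0 of 61, compared with 0.223% of all genes tested) or lower in every PPGL than in every NAM (0 of 61, compared with 0.481%). DCC and SEMA5B had no NAM at the level required by the filter, 0.437 CPM, and entered the test through the PPGLs alone, so that their direction was fixed by the way they entered. EPHA7 reached that level in 2 of 10 NAMs and 13 of 19 PPGLs, and EPHA8 in 4 and 11, so that these also passed the filter through the PPGLs. All 3 members over a log2 FC of 3 were thus of this kind, which limits the comparison of their number with all genes.

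**Figure D1:**
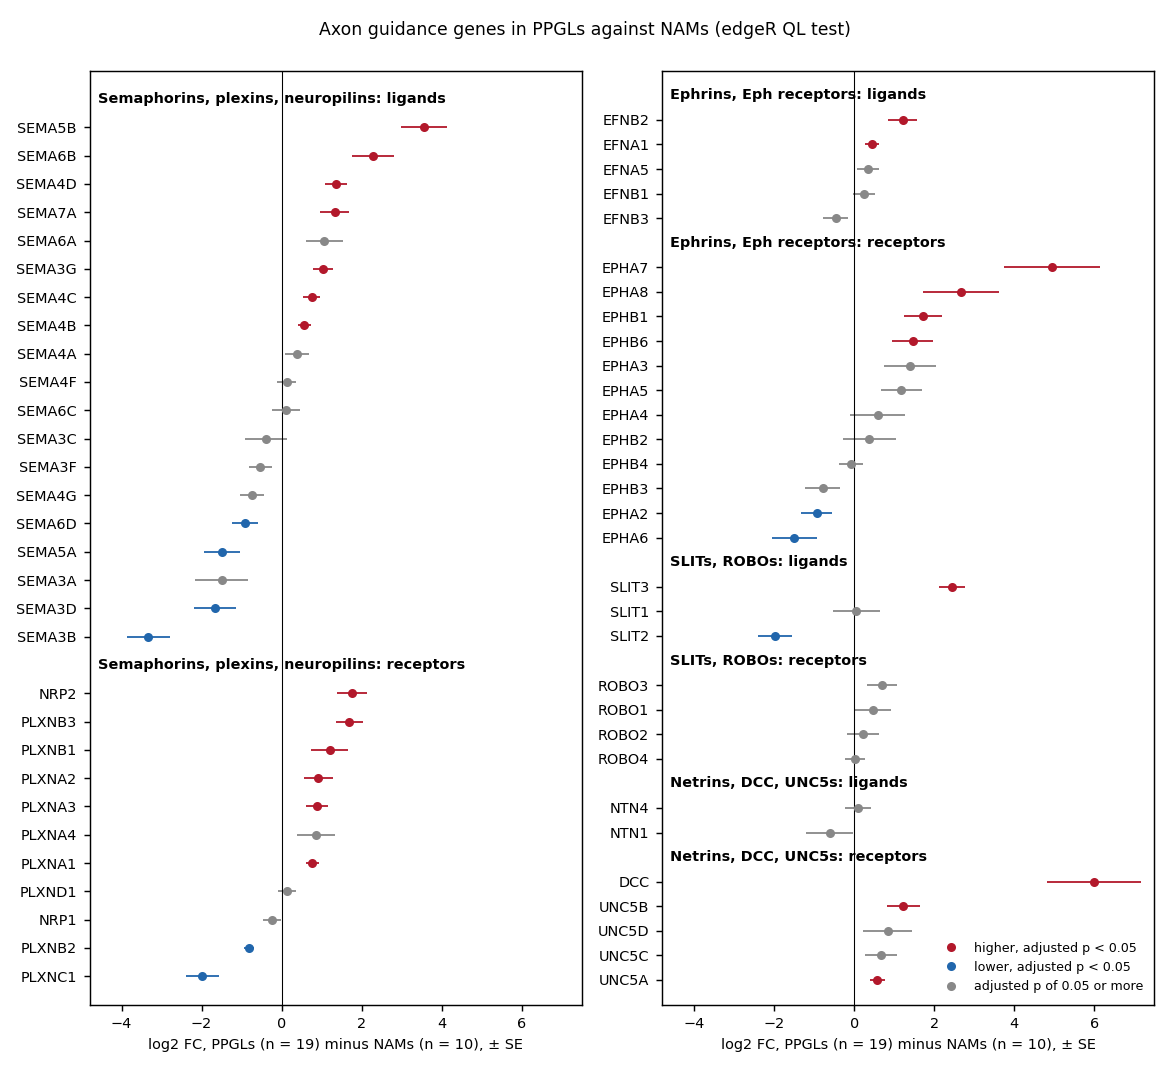
Log2 FC of the 61 tested members in PPGLs (n = 19) against NAMs (n = 10), with bars of 1 standard error (SE) on the horizontal axis and members grouped by system and role on the vertical axis. Red marks the 23 members higher and blue the 9 members lower at an adjusted p below 0.05, and the values run from -3.33 for SEMA3B to 5.99 for DCC.

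Markers of the cells in these tissues differed as well. The chromaffin markers, 13 of 14 found and led by CHGB, summed to 18000 to 97300 CPM in NAMs with a median of 32400, while PPGLs had 8790 to 119000 CPM with a median of 41000. Of 13 tested, 3 were higher and 1 was lower in PPGLs. Chromaffin transcripts were thus abundant in both tissues, and the lowest sums among all tumors were those of group 1 tumors 7, 5 and 3, at 8790, 12400 and 19300 CPM. Single markers were split in these tumors. PNMT (11.6 to 56.8 CPM) was below every NAM there, but PHOX2A (276 to 910 CPM) and HAND2 (397 to 552 CPM) were above every NAM. Below, low in chromaffin markers refers to the sum and mean log2 CPM of the list, not to each marker. Adrenal cortex markers, 9 of 11 found and led by mean by CYP17A1, summed to 12800 to 62300 CPM in NAMs with a median of 33600, while PPGLs had 38.4 to 31400 CPM with a median of 1150, and 8 of 9 were lower in PPGLs. By median STAR came first in PPGLs, at 650 CPM against 373 CPM for CYP17A1. By the mean log2 CPM of these markers, 18 of 19 PPGLs were below every NAM, group 2 tumor 10 being the exception, and CYP11A1, HSD3B2, MC2R and MRAP were at 0 in at least 1 tumor. The NAM libraries therefore held steroidogenic transcripts, and most tumors held far fewer.

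Markers of other cell types varied too. Schwann and sustentacular markers, 8 of 8 found, were led by CDH19 in NAMs and by ERBB3 in PPGLs, and summed to 60.7 to 179 CPM in NAMs, while PPGLs had 2.5 to 249 CPM, with medians of 108 and 32.5. By mean log2 CPM, 14 of 19 PPGLs were below every NAM, but of 7 markers tested edgeR called 0, with 2 at an unadjusted p below 0.05, 2 called by DESeq2 and 4 by the Mann-Whitney U-test. S100B, FOXD3 and GFAP were at 0 in at least 1 PPGL. Endothelial markers, 10 of 10 found and led by VWF in NAMs and PECAM1 in PPGLs, had median sums of 847 and 606 CPM, and 4 of 10 were lower in PPGLs. Fibroblast markers, 7 of 7 found and led by mean by COL1A2 in NAMs and COL3A1 in PPGLs, had median sums of 413 and 671 CPM, and 5 of 7 were higher in PPGLs. By median COL1A2 came first in PPGLs too, at 256 CPM against 214 CPM for COL3A1. The fibroblast sums of group 2 tumors 11, 4 and 9 stood far above all others, at 25400, 5970 and 4540 CPM. Mural markers, 5 of 5 found and led by RGS5, had median sums of 786 and 1620 CPM, and 3 were higher in PPGLs. Leukocyte markers, 7 of 7 found and led by CD79A, had median sums of 640 and 429 CPM, with 1 higher and 1 lower. These sums were mostly CD79A, with medians of 450 and 290 CPM, against 16.0 and 12.7 CPM for PTPRC. By mean log2 CPM of the list, 5 PPGLs were below every NAM and 3 above, so that the sums do not show fewer leukocyte transcripts in PPGLs. Mitosis markers, 5 of 5 found and led by TOP2A, had median sums of 16.1 and 83.9 CPM, and all 5 were higher in PPGLs. TOP2A, CCNB2 and BUB1, and FAP among the fibroblast markers, were also in the study's own list of higher genes, and the cortical markers NR5A1, MC2R, CYP21A2, CYP11A1 and STAR in its list of lower genes. These lists were chosen on these samples and were no independent evidence. Whether these cell types account for differences of the members was not tested. In bulk samples such as these, fewer cells of a type and less RNA per cell cannot be told apart.

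Among the semaphorin ligands, 7 of 19 tested were higher and 4 were lower in PPGLs. Members of the same class moved in both directions, as did the close relatives SEMA5A and SEMA5B. SEMA3B, a secreted class 3 semaphorin that acts through neuropilins, lies on chromosome 20, 39059245 to 39065661 in CanFam3.1. Its level ranged from 80.8 to 280 CPM in NAMs, with a median of 169, and from 0.701 to 86.2 CPM in PPGLs, with a median of 9.22. All tumors but group 2 tumor 10 lay below the lowest NAM, and group 2 tumor 10 was also the tumor richest in cortical markers. SEMA3B fell by 3.33 ± 0.53 (SE) on the log2 scale (adjusted p = 2.66e-05, 18 of 19 PPGLs below every NAM). The gene was also in the study's own list of lower genes, which was chosen on these samples and is not independent evidence.

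SEMA3D, another secreted ligand of the class, had 2.52 to 10.2 CPM in NAMs with a median of 6.37, and 0 to 6.42 CPM in PPGLs with a median of 1.59. Most tumors were below the NAMs but the ranges overlapped (12 of 19 PPGLs below every NAM). The log2 FC was -1.66 ± 0.52 (adjusted p = 0.0129). SEMA5A, a transmembrane semaphorin with thrombospondin repeats, ranged from 61.6 to 172 CPM in NAMs with a median of 122, and from 2.9 to 223 CPM in PPGLs with a median of 23.6. Group 2 tumor 1 had the highest level of all 29 samples, whereas 14 of 19 PPGLs lay below every NAM. SEMA5A fell by 1.49 ± 0.44 on the log2 scale (adjusted p = 0.00899).

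SEMA5B, the close relative of SEMA5A, moved the other way. It was barely counted in NAMs, at 0 to 0.305 CPM with a median of 0.174, and reached 0.108 to 4.27 CPM in PPGLs with a median of 1.49. Apart from group 2 tumors 2 and 5, every tumor was above the highest NAM. Its log2 FC came to 3.56 ± 0.58 (adjusted p = 3.15e-05, 17 of 19 PPGLs above every NAM). SEMA6B, a transmembrane ligand of plexin A receptors, had 1.22 to 3.39 CPM in NAMs with a median of 2.59, and 0.467 to 39.1 CPM in PPGLs with a median of 8.78. Its level was above the NAMs in 11 of 12 tumors of group 2 and in 3 of 7 of group 1, and the remaining tumors were within or below the range of the NAMs. This gave a log2 FC of 2.28 ± 0.52 (adjusted p = 0.0012).

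The other ligands called in this system were SEMA3G, SEMA4B, SEMA4C, SEMA4D and SEMA7A on the higher side, with log2 FC from 0.57 to 1.36, and SEMA6D on the lower side, at -0.91. SEMA6D lost its call without NAM 3 (log2 FC -0.70, adjusted p = 0.0964) or NAM 4 (-0.81, adjusted p = 0.0623). Per kb of exon, SEMA3B was the most abundant semaphorin of NAMs, with a median of 75.3 CPM per kb, whereas in PPGLs it had 4.1 CPM per kb and the transmembrane SEMA4B came first, at 19.0. As a share of the summed level per kb of all SEMA3 genes within a sample, SEMA3B took 45.7% to 79.7% in NAMs and 0.699% to 53.3% in PPGLs, with medians of 67.4% and 14.3%. SEMA3G, a secreted semaphorin of blood vessels, took 1.9% to 12.3% in NAMs and 13.5% to 64.3% in PPGLs. The share of SEMA3G was thus higher in every tumor than in every NAM, a share chosen after its values were seen and given without a test. A lower level of SEMA3B raises this share by itself. Summed per kb, semaphorin ligands had a median of 199 CPM per kb in NAMs and 142 in PPGLs, and 16 of 19 PPGLs were below every NAM. This sum includes the fall of SEMA3B from 75.3 to 4.1 CPM per kb. It does not show a fall of the ligands as a set, of which 7 were called higher and 4 lower.

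Among the receptors of semaphorins, 6 of 11 tested were higher and 2 were lower. NRP2, a co-receptor for class 3 semaphorins and for vascular endothelial growth factors, lies on chromosome 37, 14293614 to 14406949. It ranged from 108 to 469 CPM in NAMs with a median of 250, and from 191 to 2170 CPM in PPGLs with a median of 651. No tumor was below the NAMs, and most of group 2 (10 of 12) but fewer of group 1 (3 of 7) were above them. The fitted log2 FC reached 1.76 ± 0.38 (adjusted p = 0.000722, 13 of 19 PPGLs above every NAM). NRP1, the other neuropilin, had medians of 208 and 145 CPM and was not called (log2 FC -0.24, adjusted p = 0.409). Within samples, NRP2 made up 40.6% to 82.1% of the neuropilin level per kb in NAMs and 49.3% to 96.2% in PPGLs.

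PLXNB3, a plexin receptor of SEMA5A, ranged from 9.53 to 31 CPM in NAMs with a median of 17.8, and from 6.84 to 117 CPM in PPGLs with a median of 58.6. Tumors were mostly above the NAMs, except for 5 that included group 1 tumor 6 and group 2 tumor 11. Fitted over all samples, the log2 FC was 1.69 ± 0.34 (adjusted p = 0.000292, 14 of 19 PPGLs above every NAM). PLXNC1, the plexin that binds SEMA7A, ranged from 53.7 to 172 CPM in NAMs with a median of 83.9, and from 3.02 to 104 CPM in PPGLs with a median of 16. Group 1 tumor 7 and group 2 tumor 11 reached the NAM range and the other tumors did not. PLXNC1 fell by 1.98 ± 0.41 on the log2 scale (adjusted p = 0.00041, 17 of 19 PPGLs below every NAM).

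PLXNB2, a receptor of class 4 semaphorins, was the most abundant receptor of the system in NAMs, with a median of 74.2 CPM per kb. Its CPM ranged from 358 to 631 in NAMs with a median of 453, and from 143 to 391 in PPGLs with a median of 281. All tumors but group 2 tumor 1 were below the lowest NAM, although the change itself was modest. PLXNB2 fell by 0.81 ± 0.13 on the log2 scale (adjusted p = 2.77e-05, 18 of 19 PPGLs below every NAM). In PPGLs the most abundant receptor was NRP2, with a median of 148 CPM per kb, compared with 56.7 in NAMs. PLXND1, a plexin of blood vessels, stayed at similar medians of 69.5 and 69.1 CPM per kb and was not called (log2 FC 0.14, adjusted p = 0.659).

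PLXNA1, PLXNA2, PLXNA3 and PLXNB1 were also called higher, with log2 FC from 0.77 to 1.2. The call of PLXNB1, the receptor of SEMA4D, depended on samples and settings. It ended by the DESeq2 Wald test, by the Mann-Whitney U-test (adjusted p = 0.0849), with the endothelial score (log2 FC 0.71, adjusted p = 0.287) and with the fibroblast score (0.81, adjusted p = 0.156). Without group 1 tumor 7, in which PLXNB1 reached 456 CPM, the log2 FC was 0.52 (adjusted p = 0.0853), and the call also ended without NAM 2, 3, 4, 5, 6, 8, 9 or 10 or group 1 tumor 3, with log2 FC from 1.11 to 1.21 and adjusted p from 0.0514 to 0.0628. PLXNA2 lost its call without NAM 1, 2, 5, 6, 8 or 10, group 1 tumor 5, or group 2 tumor 4, 6, 7, 9 or 11, with log2 FC from 0.66 to 0.93 and adjusted p from 0.0501 to 0.0753. The call of PLXNA2 also ended by the Mann-Whitney U-test, with no low-count filter, with all 3 groups in one fit and with the cortical or fibroblast score. It ended too with the sample number as a block and without both group 2 tumors 9 and 11.

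**Figure D2:**
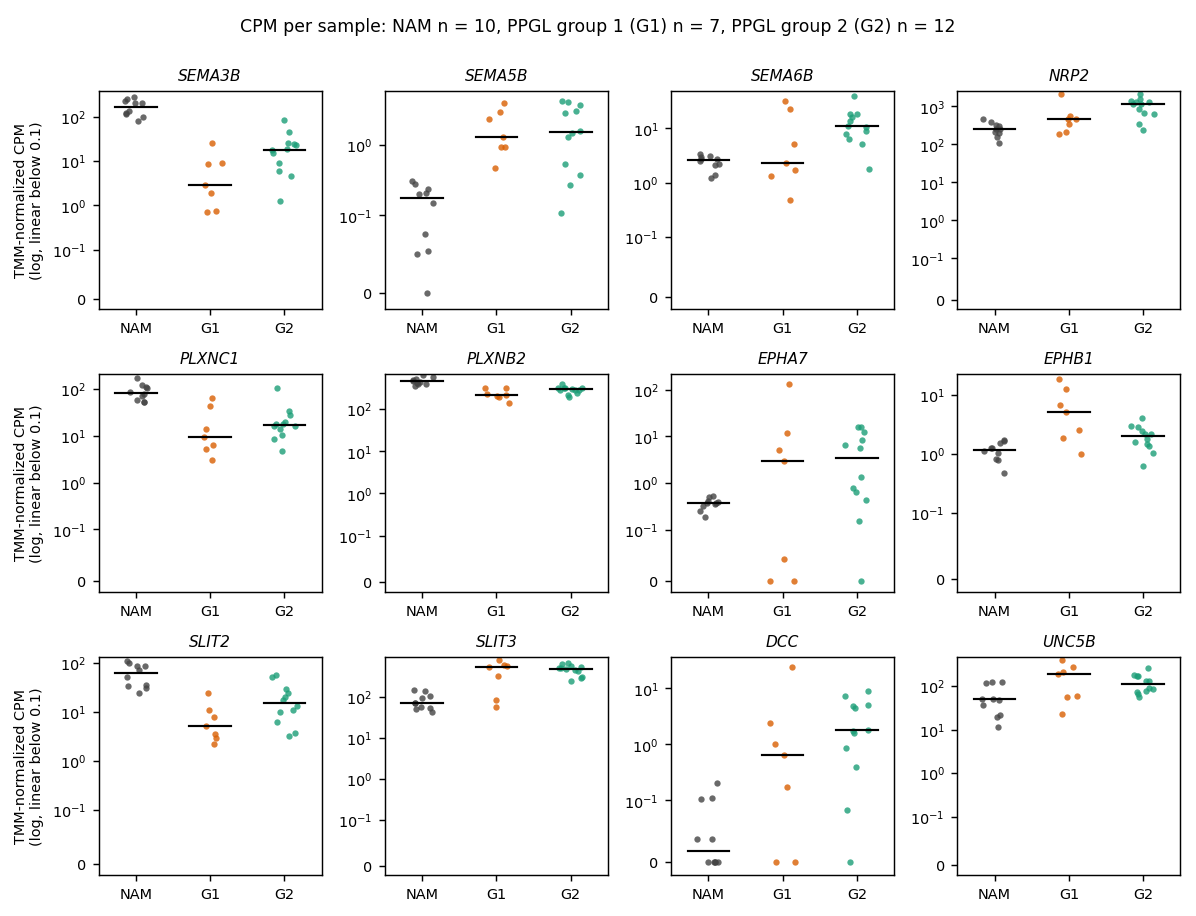
CPM of 12 members in each NAM (n = 10), group 1 PPGL (n = 7) and group 2 PPGL (n = 12), on a vertical axis that is logarithmic above 0.1 CPM and linear below it. Points are samples and lines are medians, and SLIT3 runs from 43.4 to 147 CPM in NAMs and from 55.9 to 806 CPM in PPGLs.

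In the ephrin and Eph system, receptors spread widely among tumors. Of 12 receptors tested, 4 were higher and 2 were lower in PPGLs, and of 5 ephrins tested, EFNA1 and EFNB2 were higher. EPHA7, a receptor for ephrin A ligands, lies on chromosome 12, 52137605 to 52305162. It had 0.191 to 0.527 CPM in NAMs with a median of 0.382, and 0 to 134 CPM in PPGLs with a median of 2.99. Tumors lay on both sides of the NAMs, 13 above every NAM and 5 below every NAM, and group 1 tumor 5 alone held 60.5% of the level summed over tumors. The log2 FC was 4.95 ± 1.2 (adjusted p = 0.00194), and 3.69 without group 1 tumor 5 (adjusted p = 0.00329). By the Mann-Whitney U-test the adjusted p of EPHA7 was 0.102, which ended the call.

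EPHA8, a second receptor of ephrin A ligands, had a median of 0.305 CPM in NAMs (0.12 to 1.03) and 0.671 CPM in PPGLs (0 to 22.8). Only 8 of 19 PPGLs were above every NAM. The log2 FC of 2.68 ± 0.95 (adjusted p = 0.0262) depended on group 1 tumor 1, without which it was 1.94 (adjusted p = 0.0647), and by the Mann-Whitney U-test the adjusted p was 0.401. EPHB1, a receptor of ephrin B ligands, ranged from 0.478 to 1.69 CPM in NAMs with a median of 1.18, and from 0.617 to 18.7 CPM in PPGLs with a median of 2.16. No tumor was below the NAMs, and the highest levels were in group 1 tumors 3 and 5. Its log2 FC came to 1.72 ± 0.47 (adjusted p = 0.00503, 13 of 19 PPGLs above every NAM).

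EPHB6, an Eph receptor without kinase activity, had 3.39 to 12.1 CPM in NAMs with a median of 7.26, and 1.04 to 83.6 CPM in PPGLs with a median of 11.9. Tumors were found above, within and below the NAM range, 9 of 19 being above it. This gave a log2 FC of 1.46 ± 0.52 (adjusted p = 0.0254), and by the Mann-Whitney U-test the adjusted p was 0.169, which ended the call. EPHA6 was lower, with 0.343 to 1.73 CPM in NAMs (median 0.924) and 0 to 1.3 CPM in PPGLs (median 0.271). Most tumors, 12 of 19, were below every NAM and none was above. EPHA6 fell by 1.49 ± 0.55 on the log2 scale (adjusted p = 0.0336), and lost its call without NAM 1 (adjusted p = 0.0589), NAM 6 (0.0544), NAM 7 (0.0622) or NAM 8 (0.0676), where the log2 FC ranged from -1.45 to -1.37.

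EPHA2, the main receptor of EFNA1, had 6.85 to 101 CPM in NAMs with a median of 22.1, and 3.33 to 42.5 CPM in PPGLs with a median of 15.2. The ranges overlapped, with 14 of 19 PPGLs below the median of the NAMs. The log2 FC of -0.94 ± 0.38 just passed (adjusted p = 0.0494). It no longer did without NAM 3, 6, 8 or 9, without any 1 tumor of group 1, or without group 2 tumor 2, 3, 5, 6, 7, 8 or 12, with log2 FC from -0.99 to -0.56 and adjusted p from 0.05 to 0.245, the highest being without NAM 8.

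EFNA1, a membrane-anchored ligand of EphA receptors, was the most abundant ephrin per kb in both tissues, with medians of 25.9 CPM per kb in NAMs and 31.7 in PPGLs. Its CPM ranged from 14.6 to 34.9 in NAMs and from 15.8 to 70.4 in PPGLs, and the ranges overlapped in all but 5 tumors. The log2 FC of 0.45 ± 0.18 (adjusted p = 0.0472) lost its call without NAM 2, 3, 4, 5, 6, 7, 8 or 10, group 1 tumor 2, 4 or 5, or group 2 tumor 1, 2, 6, 7 or 12, with log2 FC from 0.35 to 0.46 and adjusted p from 0.0502 to 0.0933. EPHA5 was the most abundant Eph receptor per kb, with medians of 14.1 CPM per kb in NAMs and 21.6 in PPGLs. Its CPM spanned 18.1 to 72.7 in NAMs and 0.941 to 250 in PPGLs, so that tumors were found on both sides of the NAMs. By edgeR EPHA5 was not called (log2 FC 1.18 ± 0.51, adjusted p = 0.0671), whereas the DESeq2 Wald test called it higher, as did edgeR without group 2 tumors 9 and 11 (1.31, adjusted p = 0.0315) and without group 1 tumor 2 or group 2 tumor 9.

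In the SLIT and ROBO system, SLIT3 and SLIT2 moved in opposite directions and edgeR called no receptor. SLIT3, a secreted ligand of ROBO receptors, lies on chromosome 4, 42508426 to 43094714. It ranged from 43.4 to 147 CPM in NAMs with a median of 71.6, and from 55.9 to 806 CPM in PPGLs with a median of 510. Every tumor but group 1 tumors 7 and 3, at 55.9 and 82.9 CPM, was above the highest NAM, and these are 2 of the 3 tumors with the lowest chromaffin sums. The fitted log2 FC reached 2.44 ± 0.33 (adjusted p = 2.58e-06, 17 of 19 PPGLs above every NAM). Without the 3 tumors low in chromaffin markers, a choice made after the marker levels were seen, the log2 FC was 2.61 (adjusted p = 1.22e-08).

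SLIT2, the paralog of SLIT3 that guides axons and vessels through the same receptors, went down. It had 24.4 to 108 CPM in NAMs with a median of 60.6, and 2.16 to 55 CPM in PPGLs with a median of 10.7. The few tumors within the NAM range were group 2 tumors 2, 9 and 10, and none was above it. SLIT2 fell by 1.98 ± 0.43 on the log2 scale (adjusted p = 0.000771, 16 of 19 PPGLs below every NAM). SLIT1, the remaining ligand, had medians of 34.5 and 15.2 CPM and was not called (log2 FC 0.05, adjusted p = 0.953).

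Within each sample the balance of the ligands therefore differed. SLIT3 made up 34.1% to 67.5% of the SLIT level per kb in NAMs, with a median of 47.6%, and 61.8% to 99% in PPGLs, with a median of 90.6%. In all tumors but group 1 tumor 7 the share was above every NAM (18 of 19 PPGLs). The share of SLIT2 had medians of 31.8% in NAMs and 1.66% in PPGLs, and was below every NAM in 17 of 19 PPGLs. Both shares are built from the SLIT3 and SLIT2 levels given above. They were not tested and add no separate evidence. The summed level of SLIT ligands had a median of 33.7 CPM per kb in NAMs and 119 in PPGLs. SLIT3 was also the most abundant SLIT by median in both tissues, at 15.6 and 111 CPM per kb.

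Of the SLIT receptors ROBO1 to ROBO4, 0 of 4 were called by edgeR, 0 had an unadjusted p below 0.05, and DESeq2 and the Mann-Whitney U-test each called 0, while edgeR called ROBO3 higher with the endothelial score. ROBO1 ranged from 22.4 to 60.9 CPM in NAMs and from 8.12 to 202 CPM in PPGLs (log2 FC 0.47 ± 0.44, adjusted p = 0.423). ROBO2 ranged from 13.1 to 79.8 CPM in NAMs and from 5.46 to 111 CPM in PPGLs (log2 FC 0.23 ± 0.40, adjusted p = 0.684). Tumors lay on both sides of the NAMs for both receptors. By median level per kb, ROBO1 came first in NAMs, at 6.52, and ROBO2 in PPGLs, at 6.81, with overlapping ranges.

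In the netrin system, 3 of 5 receptors tested were higher in PPGLs. DCC, the receptor through which netrin attracts axons, lies on chromosome 1, 21793328 to 22494967. It was at or near 0 in NAMs, at 0 to 0.203 CPM with a median of 0.0191 and at most 5 counts, and ranged from 0 to 24.5 CPM in PPGLs with a median of 1.57. Above every NAM were 14 of 19 PPGLs, with group 1 tumor 7 highest at 729 counts, and 3 tumors had no count. The fitted log2 FC was 5.99 ± 1.17 (adjusted p = 0.000252), and 5.39 without group 1 tumor 7 (adjusted p = 0.000244). With so few counts in NAMs the size of this fold depends on the prior count and is no bound.

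UNC5B, a receptor for repulsion by netrin that is also known from blood vessels, had 11.7 to 123 CPM in NAMs with a median of 49.5, and 22.3 to 390 CPM in PPGLs with a median of 127. Tumors were within or above the NAM range, 10 of 19 above it. Fitted over all samples, the log2 FC was 1.23 ± 0.41 (adjusted p = 0.0175). UNC5A, the most abundant receptor of the system, had medians of 37.8 CPM per kb in NAMs and 59.3 in PPGLs. Its CPM ranged from 102 to 181 in NAMs and from 67 to 393 in PPGLs, 12 of 19 PPGLs being above every NAM and 2 below. The log2 FC was 0.58 ± 0.19 (adjusted p = 0.0151). Summed over the receptors of the system, 16 of 19 PPGLs were above every NAM, with medians of 74.8 and 118 CPM per kb.

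Netrins themselves were scarce. Of NTN1 and NTN4, 0 of 2 were called by edgeR, with 0 at an unadjusted p below 0.05 and 0 called by DESeq2, whereas the Mann-Whitney U-test called NTN1 lower. NTN1 was also called lower by edgeR with the Schwann and sustentacular score, with the fibroblast score, with all 3 groups in one fit and without group 2 tumor 11. NTN4, a netrin of basement membranes and the most abundant one, had medians of 3.61 CPM per kb in NAMs and 2.56 in PPGLs. Its CPM ranged from 6.16 to 13.8 in NAMs and from 3.52 to 40.4 in PPGLs, with tumors on both sides of the NAMs (log2 FC 0.10 ± 0.33, adjusted p = 0.829). The 29 members of the 4 systems not called by edgeR had log2 FC from -1.50 for SEMA3A to 1.39 for EPHA3, and adjusted p from 0.0504 for SEMA4G to 0.961. Of these, DESeq2 called EPHA3, EPHA5, SEMA6A and SEMA4G, and the Mann-Whitney U-test called SEMA3A, NTN1 and SEMA4G.

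Because cortical markers separated almost all tumors from the NAMs, the comparison was refitted with their mean log2 CPM as a covariate. Then 10 members were called higher, of which 9 were among the 23, and 4 were called lower, of which 2 were among the 9. Over all genes the calls in this fit fell as well, to 8.61% higher and 6.98% lower. The kept calls included SLIT3 (log2 FC 2.42, adjusted p = 0.000349), NRP2 (2.22, adjusted p = 0.00212), SEMA5B (3.37, adjusted p = 0.00124), SEMA6B (2.47, adjusted p = 0.0104), PLXNB3 (1.23, adjusted p = 0.0397), DCC (5.33, adjusted p = 0.004), EPHA7 (3.49, adjusted p = 0.0434) and PLXNC1 (-2.48, adjusted p = 0.0068). SEMA3B kept its call at a log2 FC of -1.63 (adjusted p = 0.0345). Calls ended for SLIT2 (-0.88, adjusted p = 0.259), SEMA5A (-0.59, adjusted p = 0.509), SEMA3D (-0.58, adjusted p = 0.665), EPHA2 (-0.20, adjusted p = 0.832), EPHA6 (-1.23, adjusted p = 0.323) and PLXNB2 (-0.47, adjusted p = 0.0527). They also ended for EPHB1 (0.08, adjusted p = 0.934), EPHA8 (0.77, adjusted p = 0.669), EPHB6 (0.58, adjusted p = 0.588), UNC5A (0.69, adjusted p = 0.0624) and UNC5B (1.17, adjusted p = 0.161). Other members that lost their calls included SEMA4B (0.35, adjusted p = 0.309), EFNA1 (0.20, adjusted p = 0.605) and PLXNB1, which turned to -0.49 (adjusted p = 0.458). The part of cortical cells in these differences was not tested, since the score and the tissue moved together.

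With the Schwann and sustentacular score as a covariate, 14 members were called higher, all among the 23, and 8 lower, of which 7 were among the 9, compared with 17.3% and 13.5% of all genes. Calls then ended for SEMA3D (log2 FC -1.14, adjusted p = 0.141), EPHA8 (2.5, adjusted p = 0.11), EPHB6 (0.91, adjusted p = 0.259) and also for EFNA1 (0.48, adjusted p = 0.0827), PLXNB1 (0.65, adjusted p = 0.331), EFNB2, PLXNA2, PLXNA3, SEMA4C, SEMA6D and SEMA7A. Calls were kept at other sizes by DCC (4.47, adjusted p = 0.00312), EPHA7 (3.32, adjusted p = 0.0191), PLXNC1 (-2.83, adjusted p = 0.000218) and SEMA5A (-2.15, adjusted p = 0.00637). With the fibroblast score the log2 FC of DCC was 4.80 (adjusted p = 0.000724). Leaving out the 3 tumors low in chromaffin markers gave 22 higher and 8 lower members, of which 21 and 6 were among those called with all samples, compared with 22.5% and 16.3% of all genes. The log2 FC of EPHB1 then came down to 0.98 (adjusted p = 0.0155) and that of EPHA7 to 3.81 (adjusted p = 0.00175), and PLXNB1 (0.25, adjusted p = 0.23), EPHA2 (adjusted p = 0.0858), EPHA6 (adjusted p = 0.0544), PLXNA2 and SEMA6D lost their calls. Leaving out group 2 tumors 9 and 11, the highest by the mean of the fibroblast markers, gave 23 and 11, of which 22 and 9 were among them, compared with 23.1% and 16.6% of all genes. EPHA6 was also uncalled with the endothelial score (adjusted p = 0.0863) and with the fibroblast score (adjusted p = 0.0619), and EPHA2 with the endothelial score (adjusted p = 0.189) and by the Mann-Whitney U-test (adjusted p = 0.169). The fibroblast score and both sets of tumors were chosen after the marker levels were seen.

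Partners of these systems, such as co-receptors, adhesion molecules and cytoplasmic effectors, moved in both directions. Of 109 genes listed, 105 were found and 102 tested, of which 25 were higher in PPGLs (24.5%) and 15 lower (14.7%), shares near those of all genes tested. Their median log2 FC was 0.23. DSCAML1, an adhesion molecule of neurons, ranged from 0.0509 to 0.598 CPM in NAMs and from 0 to 39.7 CPM in PPGLs, with 11 of 19 PPGLs above every NAM (log2 FC 5.21 ± 1.10, adjusted p = 0.00056). Not all NAMs reached the level required by the filter, 0.437 CPM, so that DSCAML1, like EPHA7, passed it through the PPGLs. This limits what its direction and fold show. GPC3, a cell surface proteoglycan, ranged from 2.96 to 9.04 CPM in NAMs and from 0 to 373 CPM in PPGLs, with 12 above and 4 below every NAM (log2 FC 3.49 ± 1.00, adjusted p = 0.0068). OMG, a myelin protein that binds the Nogo receptor, ranged from 0.405 to 1.46 CPM in NAMs and from 0 to 83.9 CPM in PPGLs, with 8 above and 7 below every NAM (log2 FC 3.41 ± 1.07, adjusted p = 0.0132, and 2.29 with adjusted p = 0.0379 without group 2 tumor 5). All 3 were thus uneven among tumors. Calls ended for DSCAML1 with the cortical score, for GPC3 by the Mann-Whitney U-test and with the cortical score, and for OMG by the Mann-Whitney U-test, with the endothelial score and with all 3 groups in one fit.

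On the lower side, SRGAP1, a cytoplasmic partner of ROBO receptors, was the steadiest of the 3 partners named. It had 17.5 to 45.2 CPM in NAMs, while PPGLs had 2.79 to 31.4 CPM, and 18 of 19 PPGLs lay under the lowest NAM (log2 FC -1.42 ± 0.27, adjusted p = 0.00019). GRIP1, a scaffold that binds ephrin B proteins, had 1.75 to 10.2 CPM in NAMs, while PPGLs had 0 to 5.21 CPM, with 11 below every NAM (log2 FC -1.50 ± 0.47, adjusted p = 0.0133), and lost its call with the Schwann and sustentacular score. Over all alternatives, that one included, the log2 FC of GRIP1 stayed between -2.20 and -1.33. RND1, a cytoplasmic protein that binds plexins, had 7.69 to 36.3 CPM in NAMs, while PPGLs had 0.839 to 29.1 CPM, with 15 below every NAM (log2 FC -1.32 ± 0.48, adjusted p = 0.0303). Its call ended without NAM 2 (log2 FC -1.17, adjusted p = 0.0651) or NAM 4 (-1.24, adjusted p = 0.0535), and with the cortical, endothelial or Schwann and sustentacular score. Allowing for the cortical score, 7 of 102 partners were called higher, compared with 8.61% of all genes.

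The comparison of PPGL group 1 with group 2 asked how these genes differ between the tumor groups of the study. Group 1 had more of the ephrin EFNB1, of the Eph receptors EPHB1 and EPHB2, of the plexin PLXNB1 and of the semaphorin SEMA6C, and less SEMA3A. Since the groups were drawn from the expression of these same samples, the p-values describe the split and are no independent test. At an adjusted p below 0.1, 5 of 61 tested members were higher in group 1, or 8.2%, compared with 3.97% of the 14666 genes tested. In the other direction 1 member was lower, or 1.64%, compared with 2.95% for all genes. Without group 1 tumor 7, 4 members were higher and 1 lower, compared with 1.73% and 1.82% of all genes. Over members the median log2 FC was -0.08, and 0.04 for all genes tested.

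SEMA3A, the secreted semaphorin that collapses growth cones through NRP1, lies on chromosome 18, 23414576 to 23867098. It ranged from 0 to 0.333 CPM in group 1 with a median of 0.101, and from 0.433 to 7.32 CPM in group 2 with a median of 1.07. Every tumor of group 1 was below every tumor of group 2 (7 of 7), and 3 tumors of group 1 had no count while NAMs ranged from 1.33 to 6.2 CPM. Its log2 FC came to -4.04 ± 0.88 (adjusted p = 0.0197). No tumor of group 1 reached the level required by the filter, so that SEMA3A entered this test through group 2 alone and its direction was fixed by the way it entered. Several group 1 values were at the level of a few counts, so that the size of this fold depends on the prior count. It was -3.21 with the fibroblast score (adjusted p = 0.0258) and -3.28 without group 2 tumors 9 and 11 (adjusted p = 0.0266).

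SEMA6C, a transmembrane semaphorin, had 19.8 to 85.7 CPM in group 1 with a median of 35.5, and 4.12 to 25.9 CPM in group 2 with a median of 13.4. The highest level was in group 1 tumor 7, and 5 of 7 tumors of group 1 were above every tumor of group 2. This gave a log2 FC of 1.57 ± 0.33 (adjusted p = 0.0159). PLXNB1 ranged from 16.8 to 456 CPM in group 1 with a median of 44.5, and from 19.2 to 49.3 CPM in group 2 with a median of 28.3. Group 1 tumors 7, 3 and 5 stood above group 2, tumor 6 of group 1 lay below it, and the other 3 were within its range. The fitted log2 FC reached 1.76 ± 0.47 (adjusted p = 0.0453), and 0.67 without group 1 tumor 7 (adjusted p = 0.3), which ended the call.

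EFNB1, a transmembrane ephrin that also signals into its own cell, ranged from 24.8 to 96.5 CPM in group 1 with a median of 51.4, and from 12.6 to 50.8 CPM in group 2 with a median of 18.7. Group 2 tumor 9 alone of its group came close to the median of group 1, and 4 of 7 group 1 tumors were above every group 2 tumor. Fitted over all samples, the log2 FC was 1.28 ± 0.28 (adjusted p = 0.0187). EPHB2, a receptor of ephrin B ligands, had 0.292 to 35.2 CPM in group 1 with a median of 3.11, and 0.226 to 5.46 CPM in group 2 with a median of 1.14. It was highest in group 1 tumors 7, 3 and 5, and the other tumors overlapped with group 2. The log2 FC was 2.88 ± 0.65 (adjusted p = 0.0228), and 2.21 without group 1 tumor 7 (adjusted p = 0.0766).

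EPHB1 ranged from 1.01 to 18.7 CPM in group 1 with a median of 5.07, and from 0.617 to 4.0 CPM in group 2 with a median of 1.98. Above all of group 2 were 4 of 7 tumors of group 1, led by tumors 3 and 5. Its log2 FC came to 1.77 ± 0.46 (adjusted p = 0.0426), and 1.30 without group 1 tumor 3 (adjusted p = 0.116), which ended the call. By the Mann-Whitney U-test, the adjusted p was 0.337 for EPHB1, 0.211 for EPHB2 and 0.625 for PLXNB1, so that 2 members were called higher.

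**Figure D3:**
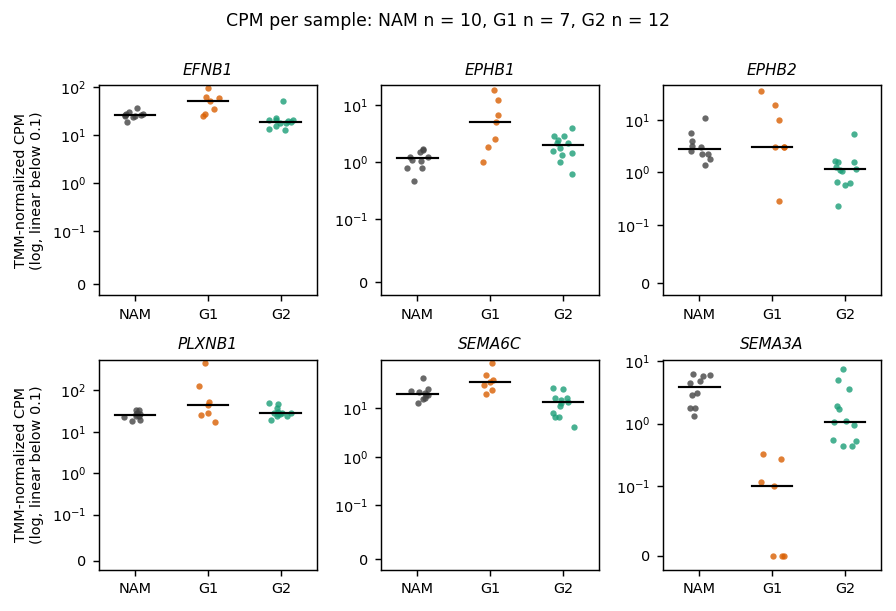
CPM of the 6 members called between the PPGL groups, for each NAM (n = 10), group 1 PPGL (n = 7) and group 2 PPGL (n = 12), on a vertical axis that is logarithmic above 0.1 CPM and linear below it. Points are samples and lines are medians, and SEMA3A lies at 0 to 0.333 CPM in group 1 and at 0.433 to 7.32 CPM in group 2.

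Markers differed between the tumor groups as well. Cortical markers summed to 38.4 to 1150 CPM in group 1 and to 228 to 31400 CPM in group 2, with medians of 218 and 3390, and 8 of 9 were lower in group 1. Once this score entered the fit, few genes of any kind were called, 0.116% higher and 0.92% lower in group 1. Of the members 0 were called higher by edgeR, against 4 at an unadjusted p below 0.05, and the 1 called lower was PLXNA2 in place of SEMA3A (adjusted p of SEMA3A 0.152, log2 FC -4.83). EFNB1 then had a log2 FC of 1.41 (adjusted p = 0.324), SEMA6C of 1.05 (adjusted p = 0.625), EPHB1 of 0.66 (adjusted p = 0.899), EPHB2 of 0.64 (adjusted p = 0.951) and PLXNB1 of -0.10 (adjusted p = 0.992). Group 1 tumors 3, 5 and 7, low by the sum and mean of the chromaffin markers though not by each of them, were also the 3 tumors highest in PLXNB1 and EPHB2. Without them EPHB1 (log2 FC 0.58, adjusted p = 0.587), EPHB2 (0.75, adjusted p = 0.597) and PLXNB1 (-0.11, adjusted p = 0.869) were not called, whereas EFNB1 (1.48, adjusted p = 0.0436), SEMA6C (1.43, adjusted p = 0.0816) and SEMA3A (-6.04, adjusted p = 0.0442) were. Of 5 mitosis markers, edgeR called 4 higher in group 1, whereas the Mann-Whitney U-test called 0. Their highest sum was in group 1 tumor 7, at 1120 CPM. The part of these cell types and tumors in the differences was not tested further.

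Among the SLIT receptors ROBO1 to ROBO4, 0 of 4 were called between the groups by edgeR, with 1 at an unadjusted p below 0.05, and DESeq2 and the Mann-Whitney U-test each called 0. The receptor at that p was ROBO1 (log2 FC 1.16, adjusted p = 0.254), with 4 of 7 group 1 tumors above every group 2 tumor, and edgeR called it with the fibroblast score (1.90, adjusted p = 0.027). Of 3 netrins tested, 0 were called by edgeR, with 1 at an unadjusted p below 0.05, 1 called by DESeq2 and 0 by the Mann-Whitney U-test. The netrin called by DESeq2 was NTN1, lower in group 1 (log2 FC -2.43 by edgeR, adjusted p = 0.115), which edgeR called with the endothelial score, with all 3 groups in one fit and without group 1 tumor 5.

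Of the partners, 7 of 102 tested were higher in group 1 (6.86%, compared with 3.97% of all genes) and 1 was lower (0.98%, compared with 2.95%). DPYSL5, a collapsin response mediator of growing neurons, ranged from 0 to 166 CPM in group 1 and from 0 to 1.79 CPM in group 2, with 4 of 7 above every tumor of group 2. Its log2 FC of 5.01 ± 1.17 (adjusted p = 0.0259) came down to 1.88 without group 1 tumor 7 (adjusted p = 0.33), which ended the call. TIAM1, a cytoplasmic effector of Eph receptors, ranged from 1.64 to 90.4 CPM in group 1 and from 0.866 to 21.2 CPM in group 2, again with 4 of 7 above (log2 FC 2.84 ± 0.58, adjusted p = 0.0144). DSCAML1 had medians of 27.0 and 0.517 CPM, with 5 of 7 above every group 2 tumor (log2 FC 3.42 ± 0.92, adjusted p = 0.0462, and 4.43 with adjusted p = 0.0106 without group 2 tumor 6). OMG was the lower partner, with 0 to 1.34 CPM in group 1 and 0.168 to 83.9 CPM in group 2. Its log2 FC of -4.72 ± 1.33 (adjusted p = 0.0554) was -4.58 without group 1 tumor 7 (adjusted p = 0.114), which ended the call, and -3.60 without group 2 tumor 5 (adjusted p = 0.083). With the cortical score none of these 4 partners was called, and by the Mann-Whitney U-test DPYSL5, TIAM1 and OMG were not. Over all alternatives, these included, the log2 FC of TIAM1 stayed between 2.5 and 3.62. That of OMG stayed between -5.25 and -3.08. The lowest log2 FC was 0.67 for DPYSL5 and 0.68 for DSCAML1. Without the 3 tumors low in chromaffin markers DPYSL5, DSCAML1 and OMG were not called, and DPYSL5 and OMG also lost their calls with the endothelial score. The call of DPYSL5 ended as well by the DESeq2 Wald test and with the Schwann and sustentacular score. Levels were low in 1 group for DPYSL5 (0 to 1.79 CPM in group 2), OMG (0 to 1.34 CPM in group 1) and DSCAML1 (median 0.517 CPM in group 2). These 3 may have passed the filter mainly through the other group, which limits what their directions and folds show.

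Single tumors stood out across members. Group 1 tumor 7 had the highest level of all 19 tumors in 10 members and the lowest in 8, group 1 tumor 6 the lowest in 10, and group 2 tumor 11 the highest in 8. Of the tested members, 2 had over 50% of their summed tumor level in 1 tumor, EPHA7 in group 1 tumor 5 and EPHA4 in group 1 tumor 6 (60.0%).

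The strand setting of the counting was not given in the sources used here, although the libraries were made with a stranded kit, so that overlapping genes and close paralogs carry some uncertainty. Exons of PLXNB2 share 42 bases with SELENOO on the opposite strand, those of SEMA7A share 123 bases with UBL7 on the same strand, and those of UNC5C share 25 bases with BMPR1B on the opposite strand, at most 3.14% of the exon length of each.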

How the data were processed

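RNA was extracted from 10 NAMs and 19 PPGLs, and stranded mRNA libraries were sequenced. The authors deposited raw exon counts per gene. Their processing notes name FastQC, STAR, Picard and HTSeq with CanFam3.1. The deposited counts are themselves named for featureCounts, so which tool counted the reads is not settled here.

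From these counts, genes were kept by the edgeR 4.0.16 filter (minimum count 10, minimum total 15), normalized by TMM and tested with the quasi-likelihood F test in R 4.3.3 (prior count 0.125). P-values were adjusted by Benjamini-Hochberg over all genes tested, and SE was taken as the absolute log2 FC over the square root of F. CPM are TMM-normalized. Thresholds were an adjusted p below 0.05 for PPGLs against NAMs, with a log2 FC of 3 as a second limit, and below 0.1 for group 1 against group 2. The steps were also tried on simulated counts. Tables and plots were made in Python 3.11.15 with matplotlib 3.10.9. Samples were grouped by their labels.

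The members and the lists of partners and markers were chosen with earlier results of these data known. Named with full statistics were, in each system and direction, the 4 members with the largest absolute log2 FC among those called, 5 in each direction between tumor groups, the ligand and receptor with the highest median level per kb in each tissue, and the 3 most changed partners in each direction. Partners not found were RGMB, RGMC, TIMD2 and SRGAP2.

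Alternatives were DESeq2 1.42.0 size factors and Wald test, library size alone, the two-sided Mann-Whitney U-test on CPM, no filter, a filter of 1 CPM, a prior count of 2, the sample number as a replicate block, marker scores as covariates, all 3 groups in one fit, and each sample left out in turn. A fibroblast score and 2 sets of tumors left out were added after seeing the data. Limits of 3 counts cover counting error only. P-values measure the spread between the dogs sampled.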

Additional observations from a re-analysis of the deposited data

Results flagged for a closer look

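PLXNB3 in group 1 tumor 6 had a log2 CPM of 3.83, the lowest of group 1, and lay far from the rest of the group, the nearest other tumor being at 5.88. It was the only such value among 62 sets of values looked at (members named here, in NAMs and in group 1), and chance alone gives such a value in about 1 of 20 sets. Finding 1 such value in 62 sets is therefore no more than chance would give.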

How the results depend on the processing

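Of 32 members called between PPGLs and NAMs, 10 kept their call under every alternative run, and of the 19 named for that comparison 8 did so, DCC, NRP2, PLXNB3, PLXNC1, SEMA3B, SEMA5B, SEMA6B and SLIT3. For DCC and SEMA5B this adds little, since they passed the filter through the PPGLs alone. The other members that kept their call under every alternative were SEMA3G (log2 FC 0.94 to 1.27) and SEMA4D (1.16 to 1.43). The 23 higher members became 10 with the cortical score and 14 with the Schwann and sustentacular score, and the 9 lower members became 4 with the cortical score. The 25 higher partners became 7 with the cortical score. Between the tumor groups, the 5 higher members became 2 by the Mann-Whitney U-test, 0 with the cortical score (4 at an unadjusted p below 0.05) and 3 without the 3 tumors low in chromaffin markers. The 1 lower member became 3 by the DESeq2 Wald test, 2 with the Schwann and sustentacular score, 3 with the endothelial score, 3 with all 3 groups in one fit and 2 with the fibroblast score. The 7 higher partners became 3 by the Mann-Whitney U-test, 0 with the cortical score, 14 with all 3 groups in one fit and 3 without the 3 tumors low in chromaffin markers, and the 1 lower partner became 0 by the Mann-Whitney U-test and with the cortical or endothelial score, and 2 with all 3 groups in one fit. The fibroblast score and the sets of tumors left out were chosen after seeing the data. The share of all genes called moved too. With the cortical score it was 8.61% higher and 6.98% lower in PPGLs, and 17.3% higher with the Schwann and sustentacular score. Between the groups, 3.97% of all genes were higher, 1.1% by the Mann-Whitney U-test, 0.116% with the cortical score, 9.24% with all 3 groups in one fit and 1.13% without the 3 tumors. The lower share was 2.95%, and 5.98% by the DESeq2 Wald test, 2.45% with the Schwann and sustentacular score and 2.31% with the endothelial score. It was 7.64% with all 3 groups in one fit, 3.11% with the fibroblast score and 1.66% by the Mann-Whitney U-test. With the cortical score it was 0.92%, and without the 3 tumors 1.03%. In each case the cause was not tested.

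Leaving out 1 sample at a time gave 20 to 24 higher and 7 to 12 lower members and 24 to 27 higher and 14 to 17 lower partners between PPGLs and NAMs. Between the groups it gave 4 to 7 higher and 1 to 4 lower members, with 4 lower without group 1 tumor 1 and 2 without group 1 tumor 4 or 5, and 6 to 9 higher and 0 to 2 lower partners. The shares of all genes called between the groups moved as well. They were 1.73% higher and 1.82% lower without group 1 tumor 7, and 2.53% and 2.09% without group 2 tumor 4.

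Signs turned for some log2 FC. In PPGLs against NAMs, PLXNB1 was -0.49 and ROBO1 -0.49 with the cortical score, and ROBO2 was -0.40 with the endothelial score. Of the members named for the tumor groups and not called by edgeR in PPGLs against NAMs, EPHB2 turned from 0.38 to -2.47 with the cortical score (adjusted p = 0.00896), to -1.14 without the 3 tumors low in chromaffin markers (adjusted p = 0.0315) and to -0.16 with the Schwann and sustentacular score. With the cortical score SEMA6C turned from 0.11 to -1.30 (adjusted p = 0.0137), EFNB1 from 0.25 to -0.76 and SEMA3A from -1.50 to 0.46. In other fits edgeR called SEMA3A lower, at -2.61 with the fibroblast score (adjusted p = 0.00152). Without group 2 tumors 9 and 11 it was called at -2.30 (adjusted p = 0.00316). It was also called lower with all 3 groups in one fit, with the sample number as a block, and without group 2 tumor 9 or 11. SEMA6C was -0.17 with the endothelial score and -0.17 without those 3 tumors. NTN4, near 0 in most fits, was -0.00 with all 3 groups in one fit, -0.02 without group 2 tumors 9 and 11, -0.13 without group 2 tumor 5 and -0.02 without group 2 tumor 9, in a range from -0.13 to 0.16 when each sample was left out. Between the groups, PLXNB1 was -0.10 with the cortical score and -0.11 without the 3 tumors low in chromaffin markers. The cause was not tested. DCC and SEMA3A had few counts in 1 group, which limits the precision of their folds.

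With the sample number as a replicate block, 15 members were higher and 12 lower in PPGLs than in NAMs, compared with 15.4% and 16.1% of all genes, and 0 members were higher and 0 lower between the groups by edgeR (4 and 4 at an unadjusted p below 0.05), where 0.0682% of all genes were higher and 0.252% lower, with 0 higher and 0 lower partners. NTN4 was -0.11 with the block. The numbers do not pair the samples, since correlations of the deviations of same-numbered samples ranged from -0.23 to 0.25 and 2 of 10 NAMs, at most, correlated best with their own number.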
